A study of Homo sapiens with 4 samples.

Results

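The response to ESS2 knockdown in PC3 cells was set against the response in DU145 cells, gene by gene. Both are established, androgen-insensitive human prostate cancer cell lines. Each line was measured with a control shRNA against luciferase (PC3-shC, DU145-shC) and with an shRNA against ESS2 (PC3-shESS2, DU145-shESS2), on 1 one-colour array for each of these 4 conditions. No other treatment is given, and all 4 cultures grew in the same serum-containing medium. The labels call the cells transduced, the methods describe stable selection with puromycin of PC3 cells that received shRNA plasmids, the ESS2 shRNA of the labels is not given a sequence, and nothing says how many clones a culture holds. A gene was included when it had a symbol and a probe well above background on all 4 arrays, which held for 14709 of the 25117 genes with a symbol. The level of a gene is the log2 signal of its probe after subtraction of the 75th percentile of the array, so that 0 is that percentile. The log2 ratio of a line is its level with the ESS2 shRNA minus its level with the control shRNA. The difference is the log2 ratio in PC3 minus the log2 ratio in DU145, and a positive value means a higher ratio in PC3.

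ESS2 encodes a nuclear protein that associates with the spliceosome and has been described as a transcriptional co-regulator. PC3 and DU145 came from different tumours, and PC3 cells lack the adherens junction protein CTNNA1. Many of the genes described here are targets of a few signal-driven factors. Interferons act through a STAT and IRF9 complex that binds the interferon-stimulated response element, inflammatory signals act through NF-kB, sterol shortage acts through SREBP factors, and amino acid shortage or unfolded protein acts through ATF4.

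Each difference is a value from 4 single arrays, with 0 residual degrees of freedom, so it has no test and no p-value. The arrays of PC3 and those of DU145 lay on different slides, and line and slide cannot be told apart in a difference, whereas the shESS2 and shC arrays of a line shared a slide. The share of spots well above background lay between 50.8 and 52.6% on the 4 arrays, and no spot was saturated. Over 280 probes that were spotted 10 times and were well above background in every spot, the SD of the difference between spots had a median of 0.12 and a 95th percentile of 0.19, which covers neither the cultures nor the hybridizations. ESS2 itself had levels of -0.98 in PC3-shC, -2.44 in PC3-shESS2, -1.31 in DU145-shC and -3.66 in DU145-shESS2 cells. It was lower with its shRNA in both lines, at log2 ratios of -1.45 and -2.35. The difference of 0.90, which has no culture replicates behind it, was 0.23 with normexp background correction. GAPDH had log2 ratios of 0.18 and 0.04, and ACTB had 0.15 and -0.04. The epithelial markers EPCAM, CDH1, KRT8, KRT18 and KRT19 were well above background on all 4 arrays. CTNNA1 was well above background on both DU145 arrays and on neither PC3 array, while KLK3, which marks luminal prostate cells, was at or below -6.76 on every array. Of 8 leukocyte markers, 3 to 5 were well above background on an array, as were 2 to 3 of 6 fibroblast markers and 2 to 3 of 3 endothelial markers. Summed on a linear scale where the 75th percentile is 1, the leukocyte markers came to 1.39, 0.513, 1.25 and 1.72 on the PC3-shC, PC3-shESS2, DU145-shC and DU145-shESS2 arrays, against 864, 849, 266 and 287 for the epithelial markers. Fibroblast markers came to 0.441 to 1.13 and endothelial markers to 0.284 to 1.56.

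Interferon and NF-kB targets carried some of the largest differences, and the start regions of a few of them are shown because the same short motif lay before genes that went in different directions. All sequences are from RefSeq, build GRCh38.p14, cover the 200 bases before a gene's first listed start, read 5′ to 3′ in the direction of the gene, and have the motif in capitals on whichever strand it lay. The first set holds the core of the interferon-stimulated response element (TTTC, any 2 bases, TTTC) and shows IFITM1 (chr11:313840-314039, plus strand), IFITM3 (chr11:320861-321060, minus strand), IFIT1 (chr10:89392423-89392622, plus strand) and ISG20 (chr15:88638816-88639015, plus strand).
IFITM1: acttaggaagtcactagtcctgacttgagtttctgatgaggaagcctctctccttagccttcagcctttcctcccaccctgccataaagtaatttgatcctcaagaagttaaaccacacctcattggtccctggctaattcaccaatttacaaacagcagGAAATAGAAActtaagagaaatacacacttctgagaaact
IFITM3: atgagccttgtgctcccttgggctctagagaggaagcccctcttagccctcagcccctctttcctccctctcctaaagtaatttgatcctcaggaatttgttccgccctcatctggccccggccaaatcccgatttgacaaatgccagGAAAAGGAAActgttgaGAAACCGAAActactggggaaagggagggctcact
IFIT1: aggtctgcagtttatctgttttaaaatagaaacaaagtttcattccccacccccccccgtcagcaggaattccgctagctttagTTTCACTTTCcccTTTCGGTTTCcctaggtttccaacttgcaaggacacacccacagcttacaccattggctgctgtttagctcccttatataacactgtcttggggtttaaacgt
ISG20: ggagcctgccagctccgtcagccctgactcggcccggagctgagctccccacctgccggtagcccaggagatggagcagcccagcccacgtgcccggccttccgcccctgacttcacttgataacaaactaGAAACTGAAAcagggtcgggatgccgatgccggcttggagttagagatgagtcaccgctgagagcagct

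Of these genes, IFITM1 and IFITM3 were lower in PC3 and higher in DU145, IFIT1 was higher in DU145 (log2 ratio 1.29) and near its control level in PC3 (log2 ratio -0.05), and ISG20 was higher in PC3 (log2 ratio 2.80) with a log2 ratio of 0.32 in DU145. The motif began 40 bases before the start in IFITM1 and 69 bases before it in ISG20. The second set holds an NF-kB pair (GGGA, any 2 bases, TTCC) and shows TNFAIP3 (chr6:137867059-137867258, plus strand), CXCL1 (chr4:73869193-73869392, plus strand), NFKBIA (chr14:35404750-35404949, minus strand) and IL6 (chr7:22727000-22727199, plus strand).
TNFAIP3: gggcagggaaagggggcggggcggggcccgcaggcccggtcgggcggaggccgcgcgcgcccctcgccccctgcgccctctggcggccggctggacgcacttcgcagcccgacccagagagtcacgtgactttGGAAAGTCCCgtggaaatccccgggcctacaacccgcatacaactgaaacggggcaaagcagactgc
CXCL1: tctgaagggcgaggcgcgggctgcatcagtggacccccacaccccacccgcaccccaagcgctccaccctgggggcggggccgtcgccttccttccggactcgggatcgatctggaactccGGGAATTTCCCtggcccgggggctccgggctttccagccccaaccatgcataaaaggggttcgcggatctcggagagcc
NFKBIA: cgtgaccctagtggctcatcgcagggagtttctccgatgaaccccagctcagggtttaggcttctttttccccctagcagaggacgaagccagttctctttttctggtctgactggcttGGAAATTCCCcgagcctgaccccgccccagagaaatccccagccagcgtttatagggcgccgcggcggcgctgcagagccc
IL6: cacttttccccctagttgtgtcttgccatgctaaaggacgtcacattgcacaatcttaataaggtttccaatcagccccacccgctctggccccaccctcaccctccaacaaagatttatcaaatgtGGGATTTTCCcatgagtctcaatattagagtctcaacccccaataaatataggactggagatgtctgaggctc

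TNFAIP3 was higher in PC3 and lower in DU145, CXCL1 and NFKBIA were lower in both lines, and IL6 was higher in both. The pair began 67 bases before the start in TNFAIP3, 81 in NFKBIA and 73 in IL6, and CXCL1 holds 2 overlapping matches. A motif of this kind therefore lay before genes of each direction, and a match is a description of the letters and not of binding.

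Across all genes the 2 responses were only weakly related. Of the 14709 genes, 631 (4.29%) had a difference above +1, that is a ratio more than 2-fold higher in PC3, and 601 (4.09%) had a difference below -1. Of the genes past 2-fold in either direction 51.2% were positive, a share that was 36.0% under median scaling and 41.2% with normexp background correction, an alternative in which dim signals are shrunk toward each other. The differences had a median of -0.03, with quartiles at -0.31 and 0.27. Their extremes were -9.59 in MSMP and 4.44 in SYTL4, the latter singled out after its value was seen. At the 2-fold limit the values are continuous, with CAND1 (-1.0001) just past it and SEPTIN7P13 (0.9999) just short of it. Over these genes the log2 ratios of the lines, which share no array, had a Pearson r of 0.15 and a Spearman rho of 0.17, and 57.2% of genes had the same sign in both. Genes are not independent replicates, so these values describe the arrays only.

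PC3 had more genes past 2-fold than DU145. In PC3, 378 genes (2.57%) were at least 2-fold higher and 411 (2.79%) at least 2-fold lower with the ESS2 shRNA. In DU145, 203 (1.38%) were higher and 230 (1.56%) lower. Of the 378 genes higher in PC3, 28 were past 2-fold the same way in DU145, 7 the opposite way, and 160 were within 1.2-fold. For the 411 genes lower in PC3 these counts were 26, 22 and 156. These counts stand against the 1.38% of all genes higher and 1.56% lower in DU145. Over all genes the DU145 ratio had quartiles at -0.24 and 0.19, both within 1.2-fold, so a ratio this small was common among all genes. The median DU145 ratio of the genes higher in PC3 was 0.09 and that of the genes lower in PC3 -0.09, against -0.03 over all genes.

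**Figure D1:**
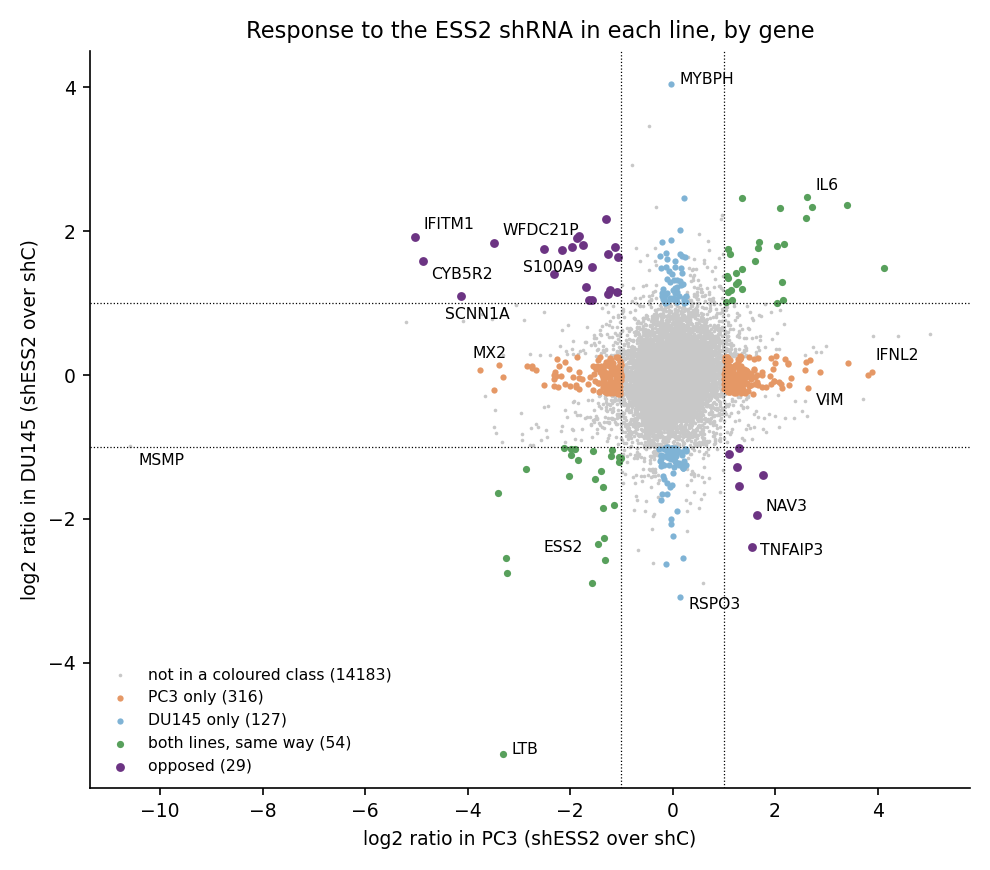
Each point is 1 of 14709 genes, placed by its log2 ratio (shESS2 over shC) in PC3 on the x axis and in DU145 on the y axis, from 1 array per condition, with dotted lines at 2-fold and classes in colour. Of the genes past 2-fold in a line, 316 in PC3 and 127 in DU145 are within 1.2-fold in the other line, and 29 genes lie past 2-fold in opposite directions.

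Genes that were past 2-fold in opposite directions were few. There were 7 (0.0476%) that were higher in PC3 and lower in DU145, and 22 (0.15%) that were lower in PC3 and higher in DU145, against 54 (0.367%) past 2-fold the same way in both lines. Those lower in PC3 and higher in DU145 included 3 IFITM genes, whose products block the entry of enveloped viruses, and the pseudogene IFITM4P. IFITM1 had levels of 6.84 in PC3-shC, 1.81 in PC3-shESS2, -1.54 in DU145-shC and 0.38 in DU145-shESS2 cells. The gap between the lines was thus narrower on the shESS2 arrays than on the shC arrays, and the log2 ratios were -5.02 and 1.92, a difference of -6.94. IFITM3 went from 8.04 to 6.23 in PC3 and from 1.35 to 3.28 in DU145 (difference -3.75), IFITM2 from 7.10 to 5.36 and from 1.59 to 3.40 (difference -3.54), and IFITM4P had a difference of -3.74. These genes are near-identical in parts of their sequence, so their probes may not be independent readings.

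The largest other differences in the same direction were those of CYB5R2, WFDC21P, SCNN1A and S100A9. CYB5R2, a cytochrome b5 reductase, had levels of 5.09 in PC3-shC, 0.23 in PC3-shESS2, -1.04 in DU145-shC and 0.55 in DU145-shESS2 cells. It was 29.2-fold lower in PC3 and 3.01-fold higher in DU145, a difference of -6.46. SCNN1A, the alpha subunit of the epithelial sodium channel, went from 0.11 to -4.01 in PC3 and from -3.46 to -2.35 in DU145 (difference -5.23). Its level in PC3-shESS2 cells and both levels in DU145 lie toward the dim end of the arrays, where the lowest levels called well above background were -5.01 to -4.62, and with normexp background correction its log2 ratio in DU145 was 0.37. S100A9, a subunit of the inflammatory protein calprotectin, went from 7.58 to 5.07 in PC3 and from -3.79 to -2.05 in DU145 (difference -4.26), and its DU145 ratio was 0.52 with that correction. WFDC21P, a transcribed pseudogene, went from 1.45 to -2.03 and from 0.12 to 1.95 (difference -5.32). Its levels crossed, with PC3 above DU145 in the controls and below it after knockdown.

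The other genes of this class, all with differences between -3.90 and -2.23, held a prostaglandin E synthase (PTGES, log2 ratios -2.15 in PC3 and 1.75 in DU145), the acute-phase protein haptoglobin (HP, -1.30 and 2.18) and the selenium-binding protein SELENBP1 (-1.87 and 1.91). It also held genes best known from leukocytes. ITGB2, the beta chain of the leukocyte integrins, had log2 ratios of -1.57 and 1.5, FCGR2A, an Fc receptor, had -2.32 and 1.41, and HLA-DMA, which loads peptides onto MHC class II, had -1.22 and 1.19. GBP2, an interferon-induced GTPase, had -1.58 and 1.04. With normexp background correction at least 1 of the ratios was under 2-fold in FCGR2A (-0.88 and 0.31), HLA-DMA (-0.85 and 1.14), GBP2 (-1.29 and 0.63) and HP (-0.54 and 0.89). ATP8A1, C11orf86, HHIPL2, LPCAT1, FEZ1 and GXYLT2 were also in the class. Of the leukocyte markers, PTPRC had levels between -2.96 and -2.14 and was well above background on all 4 arrays, CD3E and MS4A1 were so on none, and CD14 went from -0.25 to -2.41 in PC3 and from -0.30 to 0.33 in DU145. Others went differently: CD3D went from -3.89 to -6.77 and from -2.51 to -2.80, CSF1R from -2.59 to -6.28 and from -5.27 to -6.80, and ITGAM from -4.79 to -4.21 and from -4.41 to -3.96, each not well above background on at least 1 array. The part of such cells in these values was not tested.

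In the opposite direction, TNFAIP3, a deubiquitinase that shuts off NF-kB signalling, had levels of -0.06 in PC3-shC, 1.49 in PC3-shESS2, 0.73 in DU145-shC and -1.65 in DU145-shESS2 cells. It was higher in PC3 and lower in DU145, and the order of the lines turned between the control and the knockdown arrays. Its log2 ratios were 1.55 and -2.38, a difference of 3.93. LAMB3, a laminin chain of epithelial basement membranes, went from 6.58 to 7.83 in PC3 and from 6.15 to 4.88 in DU145 (difference 2.53). Its levels were close in the controls of both lines and apart after knockdown. NAV3, a microtubule-binding protein, had a difference of 3.60, which was 1.54 with normexp background correction and which its probes gave with a range of 2.36. RAET1E, a ligand of the lymphocyte receptor NKG2D, had a difference of 2.83, which was 0.72 with that correction. PRPH (difference 2.20) and the uncharacterized LOC105377590 (2.30) were also in the class.

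**Figure D2:**
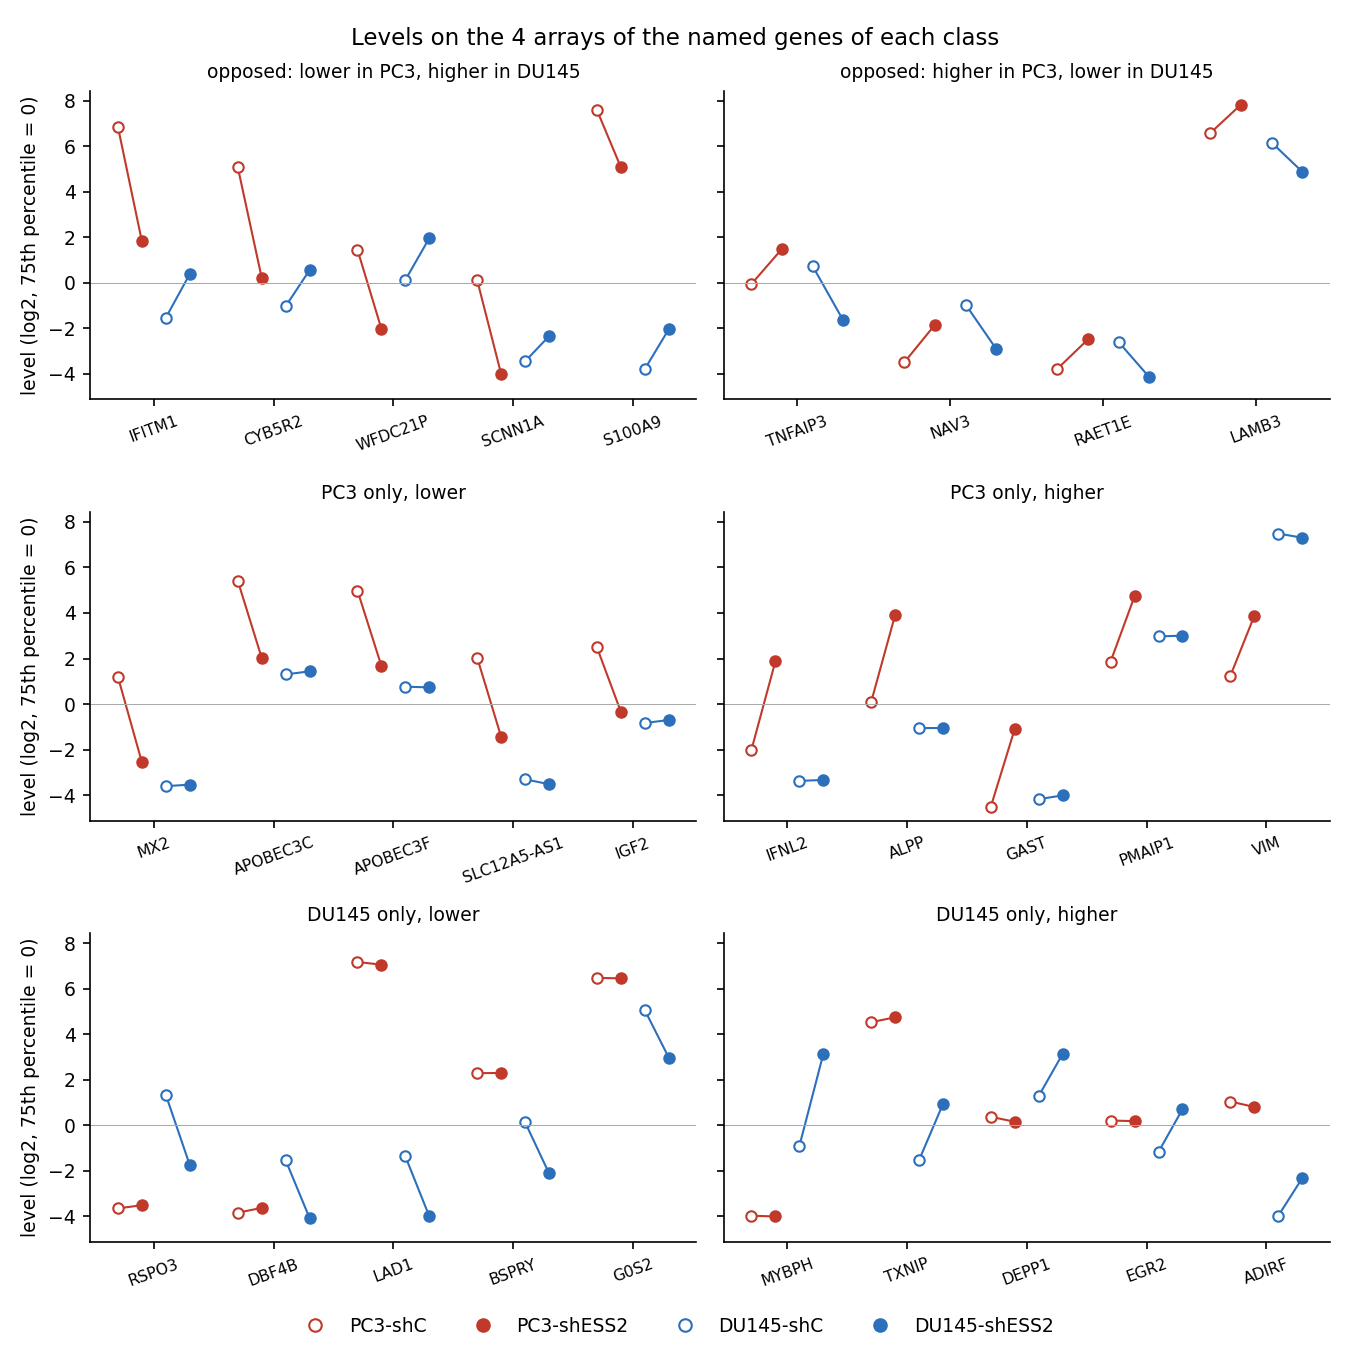
Levels (log2, 0 is the 75th percentile of an array) of up to 5 genes with the largest difference in each of 6 classes, with 1 point for each array, open for shC and filled for shESS2, PC3 in red and DU145 in blue. In the opposed classes the lines of the 2 cell lines slope in opposite directions, as in IFITM1 (6.84 to 1.81 in PC3, -1.54 to 0.38 in DU145), and in the other classes one line is flat. A flat line toward the dim end could hardly show a fall, as for MX2, IFNL2 and GAST in DU145 and RSPO3 and MYBPH in PC3.

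Genes past 2-fold in PC3 and within 1.2-fold in DU145 numbered 316 (2.15%), of which 160 were higher and 156 lower. The lower ones with the largest differences included MX2, APOBEC3C and APOBEC3F, which encode antiviral effectors. MX2, an interferon-induced GTPase, had levels of 1.19 in PC3-shC, -2.56 in PC3-shESS2, -3.61 in DU145-shC and -3.54 in DU145-shESS2 cells, so that it was high on 1 array only. APOBEC3C, a cytidine deaminase that mutates viral DNA, went from 5.43 to 2.04 in PC3 and from 1.30 to 1.44 in DU145, and its neighbour APOBEC3F from 4.99 to 1.68 and from 0.76 to 0.73. The APOBEC3 genes share sequence, and their near-equal differences of -3.52 and -3.28 may come from the same transcripts. IGF2, a growth factor, went from 2.49 to -0.34 and from -0.83 to -0.70, and the antisense RNA SLC12A5-AS1 from 2.04 to -1.44 and from -3.31 to -3.52. In each of these 5 genes PC3-shC was the highest of the 4 arrays. In DU145 MX2 and SLC12A5-AS1 lay toward the dim end of the arrays, where a fall could hardly be seen.

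The genes higher in PC3 alone were led by IFNL2, ALPP, GAST, PMAIP1 and VIM. IFNL2, an interferon that acts on epithelia, had levels of -2.02 in PC3-shC, 1.87 in PC3-shESS2, -3.38 in DU145-shC and -3.34 in DU145-shESS2 cells, and its probe may also read the near-identical IFNL3. The antiviral effectors above were thus lower in the same culture in which this ligand was higher. PMAIP1, a pro-apoptotic protein of the BCL2 family, went from 1.87 to 4.74 in PC3 and from 2.97 to 3.0 in DU145. VIM, the intermediate filament of mesenchymal cells, went from 1.24 to 3.87 in PC3 and from 7.49 to 7.31 in DU145. ALPP, a placental alkaline phosphatase with close paralogs, went from 0.09 to 3.91 and from -1.06 to -1.05, and GAST, which encodes gastrin, from -4.50 to -1.08 and from -4.18 to -4.01, where the difference of 3.25 was 1.49 with normexp background correction. In the controls VIM and PMAIP1 were higher in DU145 than in PC3, and IFNL2 and ALPP were not. GAST was near the floor in both controls, with signals of 11.6 in PC3-shC and 11.7 in DU145-shC before scaling.

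Genes past 2-fold in DU145 and within 1.2-fold in PC3 were fewer, at 127 (0.863%), with 56 higher and 71 lower. RSPO3, a secreted amplifier of WNT signalling, had levels of -3.65 in PC3-shC, -3.51 in PC3-shESS2, 1.34 in DU145-shC and -1.75 in DU145-shESS2 cells, and was 8.49-fold lower in DU145. Its PC3 levels lay toward the dim end, where a fall could hardly be seen. LAD1, a basement membrane protein, was bright in PC3 (7.18 and 7.06) and went from -1.36 to -3.99 in DU145. G0S2, an inhibitor of lipolysis, went from 5.06 to 2.98 in DU145 and was at 6.48 and 6.46 in PC3. BSPRY went from 0.14 to -2.10 in DU145 (difference 2.25, and 1.5 with normexp background correction), and DBF4B, a regulator of the replication kinase CDC7, from -1.53 to -4.07. With normexp background correction the differences of LAD1 (0.76) and DBF4B (0.95) were under 2-fold.

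Among those higher in DU145 alone, MYBPH, a myosin-binding protein of muscle, went from -0.92 to 3.12 in DU145 and was at -3.97 and -4.0 in PC3. The PC3 levels of MYBPH lay toward the dim end. TXNIP, which binds thioredoxin and limits glucose uptake, went from -1.53 to 0.94 in DU145 and was at 4.53 and 4.75 in PC3. EGR2, an immediate-early transcription factor, went from -1.16 to 0.71 in DU145 and was at 0.21 and 0.19 in PC3. DEPP1 went from 1.30 to 3.15 and ADIRF from -3.97 to -2.32 in DU145, where the difference of ADIRF was -0.67 with normexp background correction. For TXNIP, EGR2 and ADIRF the PC3 level was above the DU145-shC level, and for MYBPH and DEPP1 it was below.

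The level in the control cells was then set beside each class. PC3-shC was above DU145-shC in 19 of the 22 genes that were lower in PC3 and higher in DU145, and in 2 of the 7 that were higher in PC3 and lower in DU145, against 56.6% of all genes. The median gap between the lines (PC3 minus DU145) in the first of these classes was 3.25 with the control shRNA and -0.09 with the ESS2 shRNA, so that the lines lay closer together after knockdown in 16 of the 22. In the second class it was -1.18 and 1.66. For the genes lower in PC3 alone the gap went from 0.51 to -0.70 and for those higher in PC3 alone from -0.71 to 0.68. The control arrays enter both the gap and the difference, so the opposite signs are in part built into these values.

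The mean over both arrays of a line enters both responses evenly and is less tied to the difference. By this measure PC3 was above DU145 in 16 of the 22 genes lower in PC3 and higher in DU145, in 4 of the 7 of the opposite class, in 50.6% of the genes higher in PC3 alone and in 48.1% of those lower in PC3 alone, against 55.7% of all genes. Genes whose level differed between the lines more often had a large difference, in either direction. A large ratio in 1 line also moves its mean, so this relation is in part built in. Where the lines were within 2-fold of each other, 2.98% of 9308 genes had a difference above +1 and 2.59% one below -1. Where PC3 was over 16-fold higher, these shares were 20.4 and 18.2% of 137 genes, and where DU145 was over 16-fold higher, 20.8 and 13.2% of 106. With the gap of the control arrays alone, the shares were 11.3 and 33.1% where PC3 was over 16-fold higher and 31.5 and 5.41% where DU145 was.

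**Figure D3:**
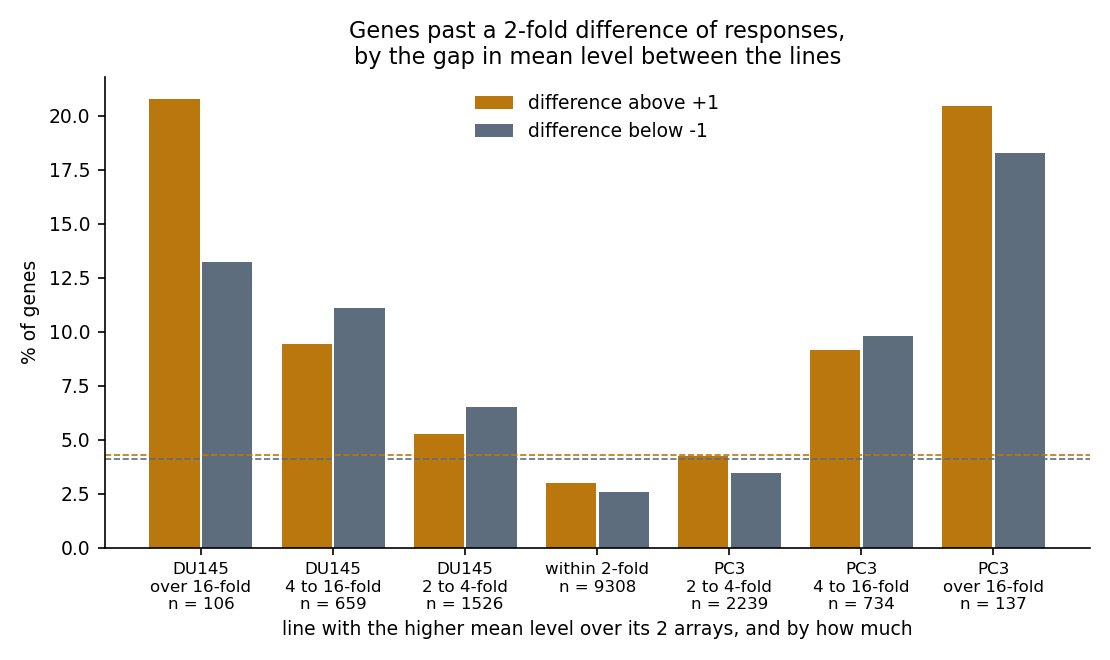
Share of genes (%) with a difference of responses above +1 or below -1, by how far apart the mean levels of PC3 and DU145 lay over the 2 arrays of each, with the number of genes in each bin and dashed lines at the shares over all 14709 genes (4.29 and 4.09%). Both shares are lowest where the lines are within 2-fold and highest at both ends, which is in part built in, because a large ratio also moves the mean of a line.

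Brightness went with the spread as well. With genes cut into 4 equal groups by mean level, 13.4% of the dimmest were past 2-fold in the difference, and 9.08, 6.88 and 4.16% of the following groups. The gap between the lines itself was about as wide in the knockdown arrays (SD 1.41 over genes) as in the control arrays (SD 1.4), so that the lines as a whole did not come closer. Mean levels lay within 2-fold between the lines in 9308 of all 14709 genes. They did so in 64 of the 160 genes higher in PC3 alone and 55 of the 156 lower, and in 24 of the 56 genes higher in DU145 alone and 24 of the 71 lower.

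Some genes could not enter the comparison because they were well above background in only 1 line. There were 765 genes well above background on both PC3 arrays and neither DU145 array, of which 106 were at least 2-fold higher and 98 at least 2-fold lower in PC3-shESS2 cells. The reverse held for 868 genes, of which 57 were higher and 29 lower in DU145-shESS2 cells. Among the genes that could be compared, 2.57% were at least 2-fold higher and 2.79% lower in PC3. In DU145 these shares were 1.38 and 1.56%. Many of the genes past 2-fold here lay toward the dim end on an array of the line that detected them. Named after their values were seen, KRT14 and KRT17, keratins of basal epithelial cells, went from -1.04 to 3.78 and from -0.97 to 3.80 in PC3, RSAD2, an antiviral enzyme, from -0.31 to 4.27, and CSF3, a granulocyte growth factor, from 4.77 to -2.66. KRT17 and KRT14 are close in sequence, and their probes may read related transcripts. Interferon-induced genes of this group went both ways. IFI44L went from 4.73 to 0.93 and OAS1 from 3.09 to 1.09 in PC3, while CXCL10, like RSAD2, rose (-2.26 to 0.08). In DU145 alone, KLB, a co-receptor of FGF hormones, went from -1.56 to 1.67. For these genes a response in the other line could not be measured.

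The gene lists were read against the medians over all genes, which were -0.07 for the PC3 ratio, -0.03 for the DU145 ratio and -0.03 for the difference, and their counts against the 4.29% of all genes above +1 and the 4.09% below -1. Counts past 2-fold in a line stand against 2.57% of all genes higher and 2.79% lower in PC3, and 1.38% higher and 1.56% lower in DU145. Interferon-stimulated genes, the effectors that interferons induce, differed widely between the lines. Over the 29 that could be compared of 41 listed, the median log2 ratio was -1.23 in PC3 and -0.01 in DU145, and the median difference was -1.03. Of the 29, 15 had a difference below -1 and 3 one above +1. In PC3 16 were at least 2-fold lower and 6 at least 2-fold higher, and in DU145 2 were lower and 7 higher. IFI6, an interferon-induced mitochondrial protein, had levels of 6.14 in PC3-shC, 2.43 in PC3-shESS2, 0.85 in DU145-shC and 1.70 in DU145-shESS2 cells (difference -4.57). PC3-shC was above DU145-shC in 28 of the 29, with median levels of 3.52 and 0.52, and after knockdown the medians were 1.83 and 0.54.

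The list was not uniform. IFIT2 and OASL, antiviral proteins that can also be induced without interferon, were past 2-fold higher in both lines, at log2 ratios of 2.17 and 1.83 for IFIT2 and 2.60 and 2.19 for OASL, and OAS3, an enzyme of the same family as OASL, was past 2-fold lower in both (-1.99 and -1.11). MX1 had log2 ratios of -3.32 and -0.93. Genes of interferon sensing and signalling had medians of -0.12 in PC3, -0.04 in DU145 and -0.25 for the difference, with 8 of 24 below -1 and 2 above +1. A component of the interferon-activated complex was among the former. IRF9 went from 2.14 to -0.60 in PC3 and from -0.47 to -0.35 in DU145 (difference -2.86), and IRF7, a factor that amplifies interferon production, from 6.59 to 4.48 and from 2.14 to 2.32 (difference -2.29). Both were lower in PC3 and within 1.2-fold of the control in DU145.

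Antigen presentation differed less. All 16 MHC class I presentation genes had a log2 ratio below 0 in PC3, as had 10 of them in DU145, against 57.4 and 53.5% of all genes, and the median difference was -0.39 with none past 2-fold. PSMB8, an immunoproteasome subunit, had the largest difference of the 16, at -0.87, from log2 ratios of -1.78 and -0.91. HLA-C went from 6.68 to 6.35 in PC3 and from 6.10 to 6.36 in DU145.

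Of 25 NF-kB targets, 10 in PC3 and 8 in DU145 were at least 2-fold lower, against 2.79 and 1.56% of all genes. Log2 ratios were below 0 in 18 and 21 of them, against 57.4 and 53.5% of all genes, with medians of -0.62 and -0.72. The difference had a median of 0.02. The members did not differ evenly: 5 had a difference above +1 and 4 one below -1. Besides TNFAIP3, CXCL8, a neutrophil-attracting chemokine, went from 4.59 to 4.87 in PC3 and from 3.16 to 1.0 in DU145 (difference 2.45). BIRC3, an inhibitor of apoptosis, went from 2.63 to 3.32 and from 1.77 to 0.66 (difference 1.80). LTB, which encodes lymphotoxin beta, went from 1.44 to -1.87 in PC3 and from 1.91 to -3.37 in DU145, and its difference of 1.96 is one of size within a shared direction, which was 0.87 with normexp background correction. Of the 25 genes 6 were past 2-fold the same way in both lines.

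In the promoters of RefSeq, the interferon element core lay within 250 bases before to 50 bases after the first listed start of 19 of 23 interferon-stimulated genes with a promoter (82.6%), against 2.83% of the 11500 genes compared here that have one and 3.65% of all 27305 promoters. Of the 19, 10 were at least 2-fold lower and 4 at least 2-fold higher in PC3, and 2 were lower and 4 higher in DU145. Of the 4 without it, 3 were at least 2-fold lower in PC3, with a median log2 ratio of -2.30 against -1.12 in the 19. The NF-kB pair lay in 12 of 21 NF-kB target promoters (57.1%), against 1.62% of the genes compared and 1.63% of all promoters. Among the opposed genes lower in PC3, 3 of 12 promoters held the interferon core, and among those higher in PC3 1 of 5 held the NF-kB pair. That pair lay in 0 of the 12 and in 33.3% of 21 genes lower in both lines. The genes lower in PC3 alone held the interferon core in 7.89% of 114 promoters and the higher ones in 3.39% of 118. The share was 7.69% of 52 among the genes lower in DU145 alone, 2.33% of 43 among those higher in DU145 alone, 10.0% of 20 among those higher in both lines and 9.52% of 21 among those lower in both. Both motifs were searched on both strands, and matches to them may overlap in part.

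Epithelial acute-phase genes had the widest gap between the medians of the lists with 3 or more members, at -2.51 in PC3 and 0.28 in DU145 over 11 of 23 listed genes, with a median difference of -2.48. C1S, a protease of the complement cascade, went from 0.93 to -4.27 in PC3 and from 0.42 to 1.16 in DU145 (difference -5.94), and its partner C1R from 3.27 to 0.68 and from 2.20 to 2.48 (difference -2.87). The gap between the lines in the controls was within 2-fold for C1S and just over 2-fold for C1R. PC3-shESS2 is near the floor for C1S, and its difference was -3.47 with normexp background correction. S100A12, a calcium-binding protein of the same family as S100A9, went from 0.32 to -2.42 in PC3 and was near the floor in DU145 (-4.20 and -4.11), and its difference of -2.83 was -1.88 with that correction. LCN2, which withholds iron from bacteria, was lower in both lines, at log2 ratios of -3.25 and -2.55. IL24, a cytokine, was higher in both, at 3.41 and 2.37. Metallothioneins, which bind zinc and copper, were all at log2 ratios below 0 in both lines, with medians of -1.95 and -0.75 and 4 of 7 differences below -1. MT2A went from 9.09 to 6.64 in PC3 and from 8.76 to 7.90 in DU145. The metallothionein genes are near-identical in sequence and may not give separate readings.

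**Figure D4:**
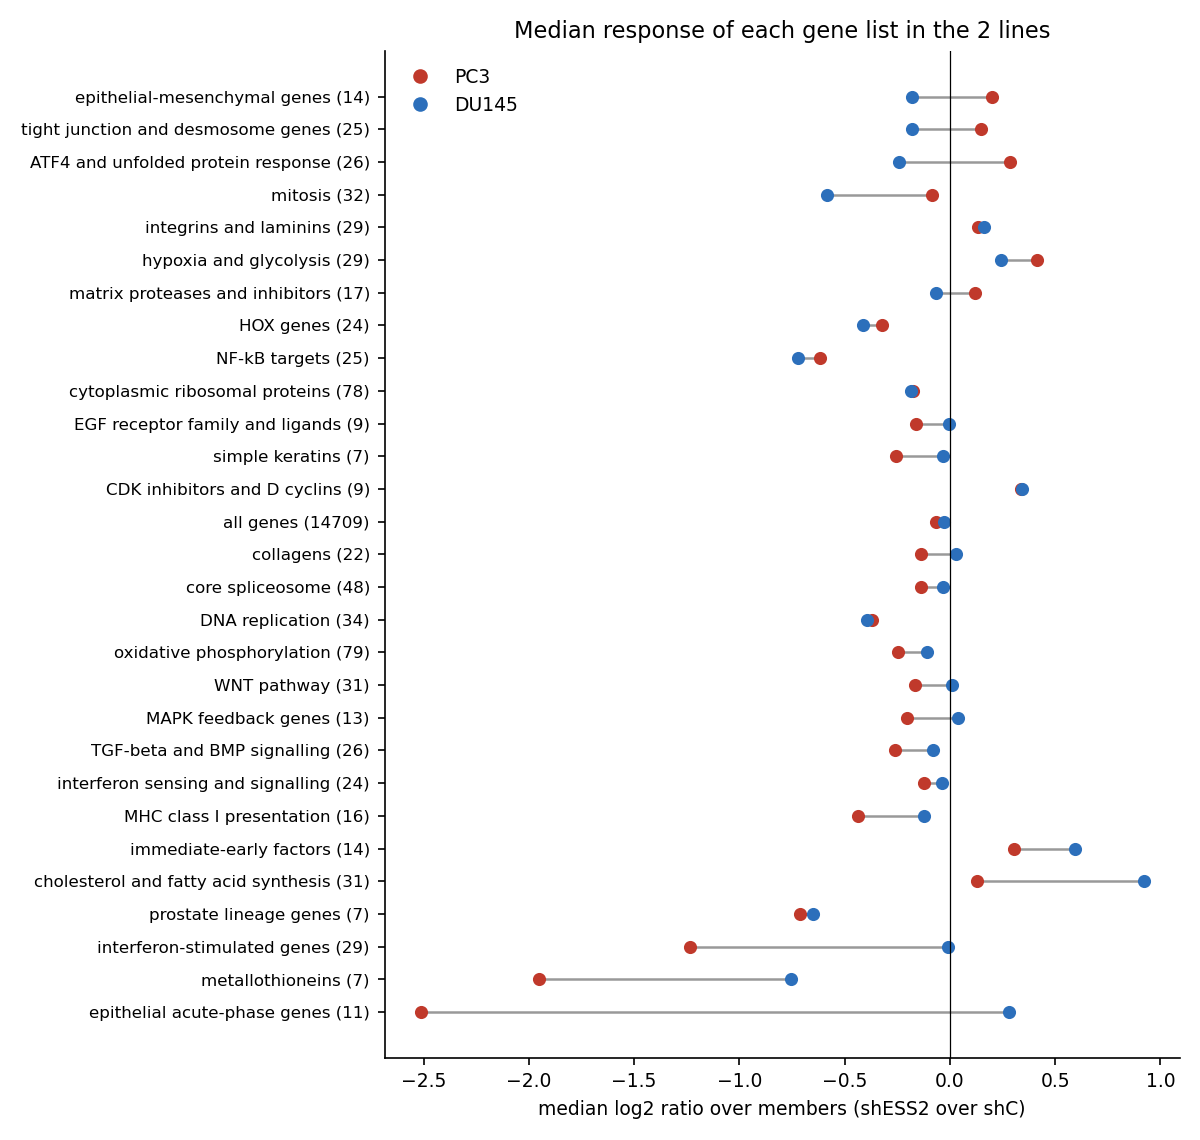
Median log2 ratio (shESS2 over shC) in PC3 (red) and in DU145 (blue) over the members of each gene list, with the number of members in parentheses and lists in order of their median difference. Epithelial acute-phase genes (-2.51 and 0.28) and interferon-stimulated genes (-1.23 and -0.01) stand apart at the lower end, cholesterol and fatty acid synthesis genes have their gap on the DU145 side (0.13 and 0.92), and the ribosomal protein genes coincide.

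Cholesterol and fatty acid synthesis genes, many of them targets of SREBP factors, were higher in DU145. Their median log2 ratio was 0.92 in DU145 and 0.13 in PC3, and 30 of 31 were above 0 in DU145 against 20 in PC3. Over all genes 46.5% were above 0 in DU145 and 42.6% in PC3. In DU145 13 were at least 2-fold higher, and in PC3 3. The median difference was -0.62, 28 of the 31 were negative (7748 of all 14709 genes), and 5 were below -1. TM7SF2, a sterol reductase, went from 1.34 to 0.88 in PC3 and from 2.19 to 3.23 in DU145 (difference -1.49). FASN, the fatty acid synthase, went from 4.37 to 4.08 and from 4.32 to 5.24 (difference -1.21), and FADS2, a fatty acid desaturase, from 5.02 to 4.87 and from 5.37 to 6.30 (difference -1.09). SC5D, a sterol desaturase, had a difference of -1.19, which was -0.75 with normexp background correction. Among the 3 without a negative difference were INSIG1, which holds SREBP back (log2 ratios 1.60 and 1.58), and the sterol carrier STARD4 (2.14 and 1.29), both past 2-fold higher in both lines.

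ATF4 and unfolded protein response genes went the other way. Their medians were 0.28 in PC3 and -0.24 in DU145, the median difference was 0.56, and 6 of 26 had a difference above +1 with none below -1. ATF3, a stress-induced transcription factor, went from 2.84 to 5.42 in PC3 and from 3.89 to 4.17 in DU145 (difference 2.30), although its 4 probes spanned 2.17. SLC7A11, the cystine transporter, went from 1.69 to 2.12 in PC3 and from 3.90 to 2.53 in DU145 (difference 1.80). CHAC1, which degrades glutathione, went from 1.75 to 2.22 and from 3.52 to 2.58 (difference 1.41), and SESN2, an inhibitor of growth signalling, from -1.30 to -0.06 and from -0.01 to -0.08 (difference 1.32, and 0.94 with normexp background correction). The larger of the 2 log2 ratios was that of PC3 in ATF3 and SESN2 and that of DU145 in SLC7A11 and CHAC1. HSPA5, the main chaperone of the endoplasmic reticulum, had 0.05 in both lines.

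Mitotic genes were lower in DU145 and near their control level in PC3. All 32 had a log2 ratio below 0 in DU145, with a median of -0.58, against 20 of 32 and a median of -0.09 in PC3. Over all genes 53.5% were below 0 in DU145 and 57.4% in PC3. None was past 2-fold in either line. The difference was positive in 31 of 32, with a median of 0.50, and 3 were above +1. KIF2C, a microtubule-depolymerizing kinesin, went from 4.37 to 4.95 in PC3 and from 4.11 to 3.41 in DU145 (difference 1.28). CENPE, a kinetochore motor, had a difference of 1.14, CDC20, an activator of the anaphase-promoting complex, 1.07 (0.94 under median scaling), and CCNA2, cyclin A, 0.93. DNA replication genes did not share this gap: their medians were -0.37 in PC3 and -0.39 in DU145, 32 and 31 of 34 were below 0, and the median difference was -0.11 with none past 2-fold. E2F1, which drives entry into S phase, had a difference of -0.78 and ORC1, an origin-binding protein, 0.73. The CDK inhibitors and D cyclins had medians of 0.34 in both lines, with CDKN1A at log2 ratios of 1.29 and 0.62 and CDKN1B at 0.14 and 0.79.

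In the epithelial-mesenchymal list the median difference was 0.77 over 14 genes, with 5 above +1 and 1 below -1. OVOL2, a repressor that keeps cells epithelial, went from 3.18 to 3.78 in PC3 and from -1.0 to -3.89 in DU145 (difference 3.48, and 1.71 with normexp background correction), and EPCAM, an epithelial adhesion protein, from 6.87 to 6.49 and from 3.32 to 0.71 (difference 2.24). TWIST1, a mesenchymal transcription factor, went from -2.26 to -0.87 in PC3 and from -2.77 to -2.90 in DU145 (difference 1.52, and 0.85 with normexp background correction), VIM was described above, and ZEB1, another mesenchymal transcription factor, had log2 ratios of 1.63 and 0.32. S100A4, a mesenchymal gene, was the 1 below -1, with log2 ratios of 0.08 and 1.16. The epithelial genes CDH1 (0.21 and 0.00) and ESRP1 (0.19 and -0.31) and the mesenchymal factor SNAI1 (-0.03 and 0.42) were under 2-fold in both lines. Tight junction and desmosome genes had a median difference of 0.59, with 5 of 25 above +1 and 2 below -1. CLDN7, a claudin, went from 4.70 to 4.34 and from 0.14 to -1.80 (difference 1.58, and 0.93 with that correction), DSP, the desmosomal plaque protein, from 4.85 to 5.06 and from 3.53 to 2.24 (difference 1.5), CLDN2 had a difference of 1.58 (1.04 with that correction), and TJP3, a scaffold of tight junctions, had one of -1.36 (-0.70 with that correction).

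Integrins and laminins had 3 of 29 above +1 and 5 below -1, against 4.29 and 4.09% of all genes, with a median difference of 0.17, and 3 of them, ITGB2 and LAMB3 included, were past 2-fold in opposite directions. ITGB3, a subunit of the vitronectin receptor, went from 0.66 to -1.84 in PC3 and from -1.32 to -0.45 in DU145 (difference -3.39). Matrix proteases and inhibitors had 3 of 17 on each side. MMP1, a collagenase, was near its control level in PC3 (-0.95 and -0.83) and went from 4.98 to 3.73 in DU145, while TIMP1, an inhibitor of such proteases, went from 5.16 to 6.55 in PC3 and from 2.50 to 2.59 in DU145. SERPINB5 had a difference of 1.49 and MMP24 one of -1.82. Collagens had 2 of 22 above and 3 below (all genes, 4.29 and 4.09%), among them COL18A1, from which endostatin is cleaved, with log2 ratios of -1.30 and 0.71. Simple keratins had 1 of 7 past 2-fold (KRT86, difference -1.07, and -0.92 with normexp background correction), and of 8 basal keratins only KRT15 could be compared, with a difference of 0.47.

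In signalling pathways, TGF-beta and BMP genes had a median difference of -0.23 with 7 of 26 below -1 and 3 above +1. ID1 and ID3, inhibitors of differentiation that BMP signals induce, were lower in PC3 and higher in DU145, where neither was past 2-fold. ID3 went from 2.56 to 1.25 in PC3 and from 3.60 to 4.58 in DU145 (difference -2.29), and ID1 from 7.76 to 6.25 and from 5.71 to 6.12 (difference -1.92). SMAD1, a BMP signal transducer, had log2 ratios of -1.93 and -0.36, and NOG, a secreted BMP inhibitor, went from 1.08 to 2.85 in PC3 and from -0.92 to -1.67 in DU145 (difference 2.52). In PC3 NOG had a sign opposite to SMAD1, ID1 and ID3, whereas in DU145 NOG and SMAD1 were both lower. A link between these genes was not tested. MAPK feedback genes had 3 of 13 below -1 and 1 above +1. DUSP6, an ERK phosphatase, went from 5.09 to 3.70 in PC3 and from 3.57 to 4.12 in DU145 (difference -1.94), and DUSP10 had a difference of 1.81, which was 0.98 with normexp background correction. EGF receptor family genes had 1 of 9 on each side: HBEGF, a ligand, had log2 ratios of -1.02 and 0.74, and EGFR had 0.93 and -0.27, with a difference of 1.19 that its 3 probes gave with a range of 1.22 and that was 0.99 when they were averaged. In the WNT pathway 5 of 31 were above +1 and 3 below -1, with WNT11 at 2.37 (1.41 with normexp), WNT5B at 1.92 (0.66 with normexp), DKK3 at -1.51 (-0.61 with normexp) and WNT6 at -2.14 (-1.26 with normexp).

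Immediate-early factors had 2 of 14 above +1 and 3 below -1 and a median difference of -0.48. NR4A2, an orphan nuclear receptor, had log2 ratios of 0.31 and 1.64, and FOSL1, a subunit of AP-1, 0.84 and -0.46. KLF6 had a difference of 1.41, which was 0.75 with its probes averaged. Hypoxia and glycolysis genes had a median difference of 0.14 with 2 of 29 above +1 and 1 below -1, shares near the 4.29 and 4.09% of all genes. ADM, a vasodilator peptide, went from 5.54 to 6.25 in PC3 and from 3.15 to 1.72 in DU145 (difference 2.13), while VEGFA, the endothelial growth factor, went from 3.54 to 2.42 and from 2.89 to 3.47 (difference -1.70). These hypoxia-induced genes went in opposite directions from each other in both lines. HOX genes had 3 of 24 above and 2 below (all genes, 4.29 and 4.09%), with differences from -1.09 to 1.14. Of the 7 prostate lineage genes 2 were below -1. MSMP, a secreted microseminoprotein, went from 8.93 to -1.65 in PC3 and from -0.14 to -1.13 in DU145, and STEAP2, a metalloreductase, had a difference of -1.46. The log2 ratio of MSMP in DU145, -0.99, lay just short of 2-fold, so it is counted neither as PC3 only nor as shared.

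The 78 cytoplasmic ribosomal protein genes had a median difference of 0.00 and a range from -0.30 to 0.54, the 48 core spliceosome genes a median of -0.10 and a range from -0.44 to 0.95, and none of either was past 2-fold. In the spliceosome the largest was ISY1 (difference 0.95), which went from 0.72 to -0.06 in DU145 and was at 0.40 and 0.58 in PC3. Oxidative phosphorylation genes had a median of -0.16 and 2 of 79 past 2-fold. COX7C, a subunit of cytochrome oxidase, was near its control level in PC3 (8.36 and 8.44) and went from 5.68 to 7.0 in DU145, and COX8C had a difference of 1.02 that was 0.35 with normexp background correction.

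Among genes with several probes the readings did not always go together. Of 3817 such genes, the difference had a median range of 0.28 between probes, and of the 240 past 2-fold 27 had probes of both signs. Of the 29 opposed genes, 23 had a single passing probe, and in the other 6 the probes gave the same sign. The 29 kept both directions under each of 7 alternatives (median scaling, quantile normalization, normexp background correction, the authors' scaled values, the mean of a gene's probes, outlier spots kept and a filter on 1 array of each line). They were picked as past 2-fold in both lines, and most of these settings change their values little. The kept directions are therefore no separate support. With normexp background correction only 12 of them stayed past 2-fold in both lines, among them CYB5R2, IFITM1, IFITM2, IFITM3, IFITM4P, ITGB2, LAMB3, PTGES, SELENBP1, TNFAIP3 and WFDC21P.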

How the data were processed

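RNA of 4 cultures was measured on 1-colour Agilent arrays. The authors deposited each array's scanner output, made with Agilent Feature Extraction (12.1.0.3 for PC3 and 12.0.3.1 for DU145), in which the processed signal is an intensity with its background subtracted and no scaling between arrays. The deposited table of scaled intensity values has column medians of 41.6, 47.5, 77.6 and 77.3 (PC3-shC, PC3-shESS2, DU145-shC, DU145-shESS2) and follows the processed signal by a near-constant factor of 3.65, 3.52, 6.17 and 6.09, so it is linear and not centred by gene; how the factor was set is not given in the sources used here. The direction of every ratio is shESS2 over shC.

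Control and outlier spots were left out, processed signals were put on the log2 scale, and the 75th percentile of each array (263, 290, 212 and 218) was subtracted. Spots of a probe were averaged. Of 58196 probes, 35073 matched a RefSeq symbol by accession, and 24880 were well above background on all 4 arrays. A gene was represented by its brightest such probe. With 1 array a condition no test was made, and the number of arrays limits the precision. The calculation was tested on simulated data.

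The genes and 29 gene lists were chosen with earlier results of these data known. Named genes are the 5 with the largest difference in each of 6 classes and up to 4 in each list, among genes whose probes had the same sign, with fixed checks and markers. Other genes were named after their values were seen, and a few results are not reported here. The alternatives were median scaling, quantile normalization, normexp with an offset of 50 (on the median spot signal), the authors' scaled values, averaging over the probes of a gene, treating probes separately, keeping outlier spots, a filter on 1 array of each line and a limit of 1.5-fold in place of 1.2-fold for the other line. Python 3.11.15, numpy 2.4.6, pandas 2.3.3, matplotlib 3.10.9, R 4.3.3 and limma 3.58.1 (for normexp only) were used. Coordinates are those of the promoter table (GRCh38.p14), not of the array design.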

Additional observations from a re-analysis of the deposited data

Results flagged for a closer look

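In 11 of the named genes the knockdown arrays of the lines lay past 2-fold on opposite sides of their controls. Each condition has 1 array, so the difference between the lines was not tested. The differences (log2, PC3 ratio minus DU145 ratio) were -6.94 in IFITM1, -6.46 in CYB5R2, -5.32 in WFDC21P, -5.23 in SCNN1A, -4.26 in S100A9, -3.75 in IFITM3 and -3.08 in ITGB2, where PC3 was lower and DU145 higher with the ESS2 shRNA. They were 3.93 in TNFAIP3, 3.60 in NAV3, 2.83 in RAET1E and 2.53 in LAMB3, where PC3 was higher and DU145 lower.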

How the results depend on the processing

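No paired analysis was possible because each condition has 1 array and no test was made. With 1 array for each condition no value has a replicate check, and slide and line cannot be told apart. Counts moved by over 1.5 times with normexp background correction, which shrinks ratios of dim genes by its offset: genes with a difference above +1 were 252 in place of 631, below -1 359 in place of 601, opposed with PC3 higher 3 in place of 7, opposed with PC3 lower 10 in place of 22, and past 2-fold in DU145 only 48 in place of 127. With the filter on 1 array of each line, opposed genes with PC3 higher were 13. With 1.5-fold as the limit for the other line, 555 genes were past 2-fold in PC3 only and 265 in DU145 only. The other values of these 6 counts stayed within 1.5 times, and the counts past 2-fold in each line, in both lines and in the lists were not recomputed. The share of positive differences among those past 2-fold was 51.2%, and it was 36.0% with median scaling, 41.2% with normexp and 59.6% with the authors' scaled values. Median scaling moved the median difference of all genes from -0.03 to -0.16. No difference of a named gene past 2-fold changed sign, but 25 of 101 such genes were under 2-fold in at least 1 alternative, 16 of them with normexp only. The median difference of interferon-stimulated genes lay between -1.17 and -0.94, that of acute-phase genes between -2.61 and -1.88, that of cholesterol and fatty acid synthesis genes between -0.75 and -0.55, that of ATF4 genes between 0.43 and 0.63, that of mitotic genes between 0.37 and 0.59 and that of metallothioneins between -1.33 and -0.60. The medians of the NF-kB targets (-0.11 to 0.25), HOX genes (-0.08 to 0.12) and ribosomal protein genes (-0.13 to 0.08) took both signs, as did those of the CDK inhibitors, EGF receptor family, simple keratins, collagens and matrix proteases.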
